A study of Mus musculus with 3 samples.

Results

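A set of 9 genes that move calcium and electrical current in the heart (Atp2a2, Ryr2, Pln, Cacna1c, Slc8a1, Casq2, Kcnq1, Jph2 and Gja1) were followed in ribosome-associated RNA prepared from mouse hearts through tagged endothelial ribosomes. They were picked by symbol, and all 9 are listed among the 17583 genes of the deposited table. The 3 libraries came from 3 mice of the genotype Cdh5-CreERT2;Rpl22tm1.1Psam, called EC-RiboTag, in which a tamoxifen-inducible Cre driven by the endothelial gene Cdh5 lets endothelial cells add a hemagglutinin tag to the ribosomal protein Rpl22. Ribosomes were pulled down by the tag from homogenized heart, so RNA of other cells can be carried along. By the methods the mice were on a C57BL/6 background and received tamoxifen on 5 consecutive days. They were adults, with the age of each mouse not given in the sources used here. All 3 mice belong to 1 condition. The sample labels state that coronary ligation had been done 7 days earlier, while the RiboTag methods do not mention an infarct. The labels do not spell out the letters Rz in the sample names. Elsewhere the study's supplement uses RZ for the remote zone of infarcted EC-RiboTag hearts at that time, in an experiment measured by qRT-PCR, so these libraries may come from that zone, but no source used here ties them to it. The study's supplement compared immunoprecipitate with input of EC-RiboTag hearts by qRT-PCR for Cdh5, Pecam1, Myh6, Ptprc and Pdgfra, which are not among the 9 genes. No input or untagged library was analysed here. The values are therefore levels within the immunoprecipitate, not enrichments, and endothelial transcripts of these genes cannot be told apart from transcripts carried over from cardiomyocytes. Nor can a larger amount of carried-over RNA be told apart from more RNA of a gene in each cell.

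In a working heart muscle cell, depolarization opens L-type calcium channels, and the small calcium current that enters makes ryanodine receptors release much more calcium from the sarcoplasmic reticulum. A calcium pump then returns calcium to the reticulum, a sodium-calcium exchanger carries the rest out of the cell, potassium currents restore the resting potential, and gap junctions pass the impulse to the next cell. Most of the 9 genes are known for this cycle in cardiomyocytes, whereas Gja1 is used by both cardiomyocytes and endothelial cells, and endothelial cells release stored calcium mainly through inositol trisphosphate (IP3) receptors.

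Pln encodes phospholamban, which holds back the calcium pump until it is phosphorylated, and Sln encodes sarcolipin, a smaller inhibitor of the same pump that is typical of atrial muscle. Their coding sequences are shown because these inhibitors of the same pump differed widely in level. Both come from the reference genome GRCm39, Pln from chr10:53219960-53220118 and Sln from chr9:53760757-53760852, each on the plus strand and in a single coding exon, and both are written 5′ to 3′ with the stop codon. The capitals in Pln mark codons 16 and 17, for the serine and threonine that kinases phosphorylate.
Pln: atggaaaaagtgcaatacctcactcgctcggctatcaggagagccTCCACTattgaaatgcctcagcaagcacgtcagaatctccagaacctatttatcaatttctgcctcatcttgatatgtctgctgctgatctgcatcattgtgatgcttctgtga
Sln: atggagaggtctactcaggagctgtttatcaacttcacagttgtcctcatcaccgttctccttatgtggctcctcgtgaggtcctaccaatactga

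The deposited values are read counts per gene that the authors divided by a DESeq2 size factor for each library and rounded, and are called normalized counts here. They rest on about 7320000, 6750000 and 7560000 reads in mice 1, 2 and 3, and the 9 genes on between 322 and 4668 reads per gene and library. All 12 endothelial marker genes were above the median per kb of transcript of genes whose mean normalized count reached 200. Flt1, Kdr, Cdh5 and Eng were the highest by count. Genes of the contractile sarcomere, which mark cardiomyocytes, were also abundant. Myh6, the main myosin heavy chain of the adult mouse heart, had normalized counts of 3428, 3701 and 3643, and 11 of the 14 sarcomere genes were above the same median.

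The largest counts were those of Ryr2, the calcium release channel of the sarcoplasmic reticulum (ENSMUSG00000021313, chr13:11567988-12121831, minus strand). Ryr2 had normalized counts of 3280, 3667 and 4486 (3811 ± 616, SD, n = 3) and rank 16 of 17583 by mean. Its canonical transcript is also very long, with 105 exons and 16853 bases. Per kb of that transcript Ryr2 came to 226.1 ± 36.5 (SD, n = 3), rank 3528 of 9356 genes whose length is known and whose mean normalized count reached 200. The median over those genes was 176.3 per kb. The high count of Ryr2 was thus a moderate level once its length was taken into account.

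The highest level per length was that of Atp2a2, which encodes the pump SERCA2 that refills the sarcoplasmic reticulum of cardiomyocytes and the endoplasmic reticulum of most other cells (ENSMUSG00000029467, chr5:122591576-122640288, minus strand). Atp2a2 had normalized counts of 2778, 2502 and 2564 (2614.67 ± 145, SD, n = 3). The 3 mice were close together, with a coefficient of variation (SD over mean) of 5.54%. Per kb it reached 589.2 ± 32.6, rank 300. With all annotated exons of the gene as its length, the rank was 1227. The gene total does not separate the cardiac form SERCA2a from the widespread form SERCA2b.

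Its inhibitor Pln (ENSMUSG00000038583, chr10:53213763-53222083, plus strand) had normalized counts of 1433, 1230 and 1229 (1297.33 ± 117, SD, n = 3), with mouse 1 above the other two. The coding sequence printed above is 3.87% of the 4105 bases of its canonical transcript, and the rest is untranslated. Per kb Pln came to 316.0 ± 28.6. Sln, in contrast, was listed at 27, 1 and 24, which makes it 1 of the 2 lowest of 20 other coupling genes. The value in mouse 2 rests on about 1 read (exact 95% Poisson interval 0.0253 to 5.57 reads, for counting error only), and no ratio to Sln is given.

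Calcium entry was represented by Cacna1c, the pore-forming subunit of the L-type channel Cav1.2, which is also the main L-type channel of vascular smooth muscle (ENSMUSG00000051331, chr6:118564201-119173851, minus strand). Cacna1c had normalized counts of 1825, 2313 and 2080 (2072.67 ± 244, SD, n = 3), lowest in mouse 1 and highest in mouse 2. Per kb it came to 311.1 ± 36.6. The canonical transcript holds almost only coding sequence (98.5%), and with the longest protein-coding transcript of the annotation, 13162 bases, the level was 157.5 per kb.

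Besides Ryr2, the release site was represented by Casq2 and Jph2. Casq2 encodes calsequestrin, the calcium buffer inside the sarcoplasmic reticulum (ENSMUSG00000027861, chr3:101993731-102053830, plus strand), and had normalized counts of 612, 609 and 482 (567.7 ± 74.2, SD, n = 3). Mouse 3 was below the other two, which differed little. Jph2 encodes junctophilin 2, which ties the plasma membrane to the reticulum so that Cav1.2 and Ryr2 face each other (ENSMUSG00000017817, chr2:163178162-163239913, minus strand). Jph2 had normalized counts of 869, 992 and 693 (851.3 ± 150, SD, n = 3), again lowest in mouse 3. Per kb of canonical transcript Jph2 came to 199.75 ± 35.3 and Casq2 to 102.7 ± 13.4, the lowest of the 9 genes on this length. With the union of annotated exons Casq2 came to 99.4 per kb, above Cacna1c at 92.8, Kcnq1 at 78.4 and Slc8a1 at 28.2.

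Slc8a1, the sodium-calcium exchanger NCX1 (ENSMUSG00000054640, chr17:81680534-82045806, minus strand), had normalized counts of 451, 619 and 536 (535.3 ± 84.0, SD, n = 3), in the same order of mice as Cacna1c. Its level per length could not be fixed well, because the annotated transcripts of this gene differ from 3265 bases for the canonical one to 18464 for the longest coding one. The first gave 164.0 ± 25.7 per kb (rank 5032) and the second 29.0 (rank 9269).

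Kcnq1, the pore of the slow delayed rectifier potassium current, had the lowest mean count of the 9 genes (ENSMUSG00000009545, chr7:142660099-142980779, plus strand). Its normalized counts of 314, 404 and 488 (402.0 ± 87.0, SD, n = 3) were lowest in mouse 1 and highest in mouse 3. Per kb it came to 131.8 ± 28.5. Kcne1, the subunit that makes the channel slow, was listed at 7, 8 and 11, the lowest mean among 23 cardiac ion channel genes. Kcne3, another subunit of the same family, was chosen after values had been seen and had normalized counts of 97, 192 and 154. The long antisense RNA Kcnq1ot1, also chosen afterwards, was counted on its own strand at 48, 33 and 42.

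Gja1, which encodes the gap junction protein connexin 43, differed little between mice (ENSMUSG00000050953, chr10:56253426-56278609, plus strand). Gja1 had normalized counts of 1504, 1509 and 1396 (1469.67 ± 63.8, SD, n = 3), a coefficient of variation of 4.34%, the lowest of the 9 genes over all 3 mice, though not without mouse 1 (5.50%, against 1.73% for Atp2a2 and 0.058% for Pln) or with the length trend described below removed (6.39%, against 6.22% for Ryr2). Per kb it came to 312.7 ± 13.6.

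**Figure D1:**
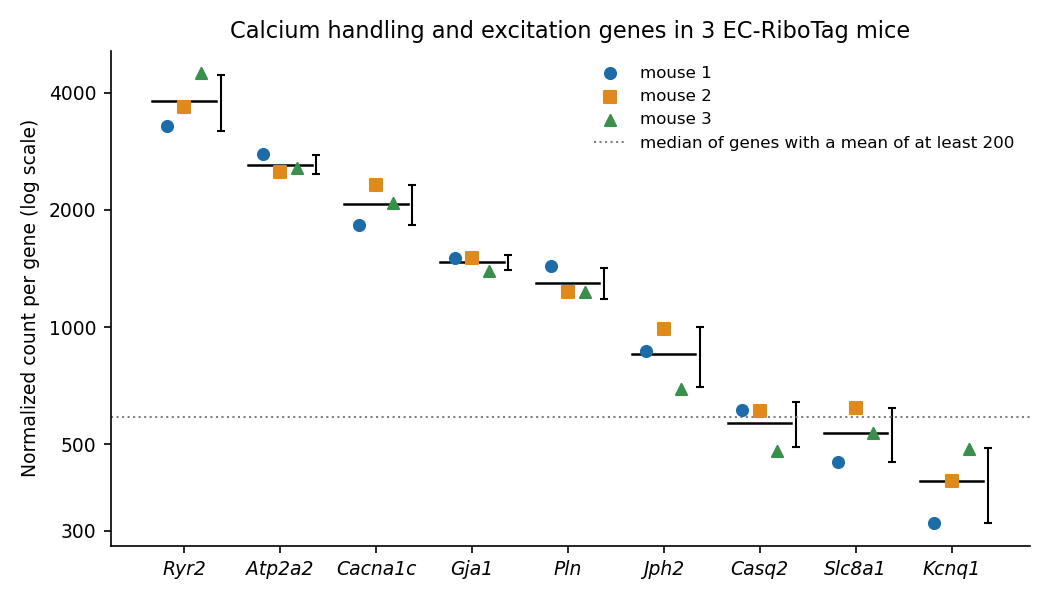
Normalized count (log scale) of each of the 9 genes in mice 1, 2 and 3 (points), with the mean (line) and SD (bar, n = 3). Counts ran from 314 for Kcnq1 in mouse 1 to 4486 for Ryr2 in mouse 3, and the dotted line is the median, 586.7, of all genes whose mean reached 200.

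Ordered by level per kb of canonical transcript, the genes ran Atp2a2, Pln, Gja1, Cacna1c, Ryr2, Jph2, Slc8a1, Kcnq1 and Casq2. Of the 8 pairs of neighbors in this order, 2 had ranges over the mice that did not overlap. Atp2a2 was 1.87-fold above Pln (log2 ratio 0.90 ± 0.05, SD, n = 3), and Cacna1c was 1.38-fold above Ryr2 (log2 ratio 0.47 ± 0.22). Both differences depend on the length used. With the union of annotated exons the first was 0.02 and the second turned to -0.43. Pln, Gja1 and Cacna1c lay at 316.0, 312.7 and 311.1 per kb, closer than their spread, and the ranges of neighbors from Ryr2 down to Casq2 overlapped too. An exact sign-flip permutation test over 3 mice (two-sided) cannot give a p below 0.25, which both of the separated pairs and Slc8a1 against Kcnq1 reached (adjusted p = 0.667 over 8 pairs). The pairs were formed by ordering these same values, so the test gives no independent support for the order.

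Set beside other gene lists, the 9 genes had a median of 234.3 ± 31.2 normalized counts per kb (SD of the medians of 3 mice). Of the 9, 6 were above 176.3 per kb, the median of genes whose mean reached 200. The number above the median was 6 to 8 in other settings. The median was 690.1 ± 13.4 per kb for endothelial markers and 581.5 ± 36.6 for sarcomere genes. For 20 other genes of excitation-contraction coupling it was 86.9 ± 5.9, and 4 of them were above 176.3 per kb. A mean of at least 200 was reached by 13 of the 20. The highest of these by count were Adcy6, an adenylyl cyclase, at 1692.7 ± 57.1, and Sri, a calcium-binding regulator of the ryanodine receptor, at 1330.7 ± 71.6. The calcium-binding protein gene Asph and the kinase gene Camk2d followed with 1082.0 ± 3.5 and 1027.0 ± 32.4. At the low end, Ppp1r1a, an inhibitor of protein phosphatase 1, was listed at 11, 13 and 12.

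Among other coupling genes, several that work directly with the 9 genes were looked up after values had been seen. Trdn, the triadin that links calsequestrin to the ryanodine receptor, had normalized counts of 341, 259 and 240, against 612, 609 and 482 for Casq2. Hrc, a calcium-binding protein of the reticulum, had 734, 608 and 632. Fkbp1b, a small protein bound to Ryr2, had 158, 119 and 128, while the related and widely expressed Fkbp1a had 1347, 1460 and 1313. The auxiliary channel subunit gene Cacna2d1 had 400, 423 and 424, and Cacnb2, whose product also belongs to Cav1.2, had 123, 164 and 153. Cacnb3, a subunit gene of the same kind, was higher than Cacnb2 in each mouse at 412, 426 and 509.

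Cardiac ion channel genes as a list were lower, with a median of 38.1 ± 1.2 per kb over 23 genes. Of the 23, 12 had a mean of at least 200, and 2 were above 176.3 per kb, the median of genes with such a mean. The highest by count was the potassium channel gene Kcna5, with normalized counts of 1526, 1353 and 1577. Genes of store-operated calcium entry, IP3 receptors and related calcium transport, which do not depend on heart muscle, had a median of 148.6 ± 4.0 per kb over 21 genes. Of the 21, 17 had a mean of at least 200, and 8 were above 176.3 per kb. Among them were Stim2, a calcium sensor of the reticulum, at 1379, 1364 and 1339, and Calr, a calcium buffer there, at 1273, 1424 and 1260.

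**Figure D2:**
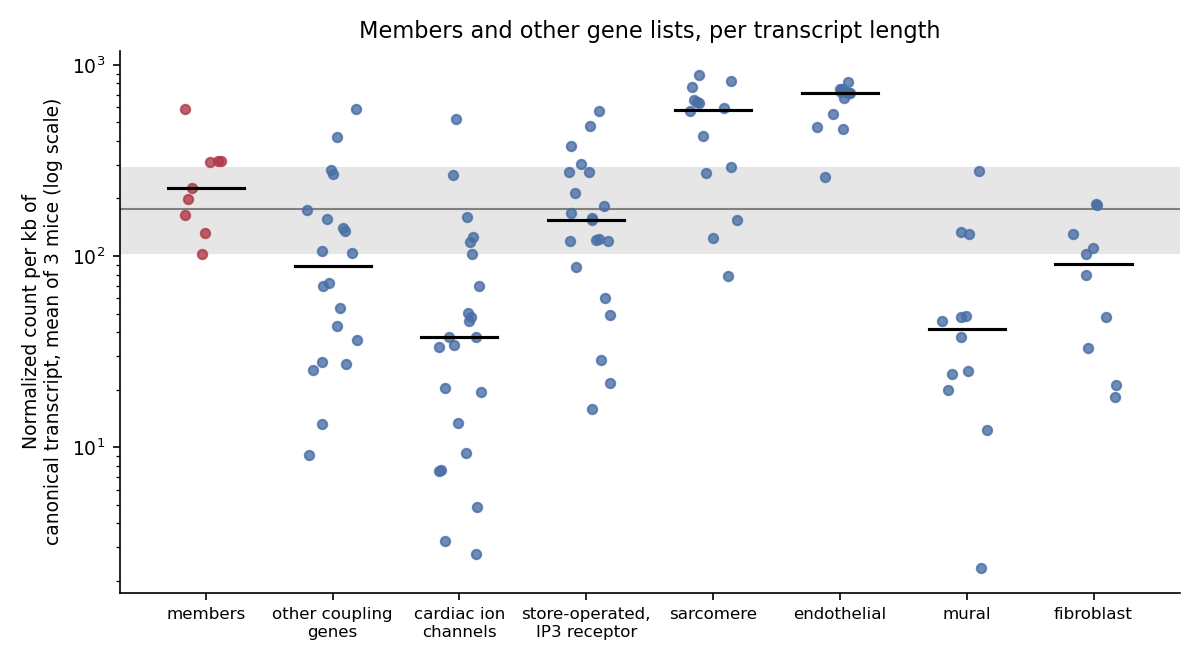
Mean normalized count per kb of canonical transcript over 3 mice (log scale) for each gene (point) of the 9 members and 7 other lists, with the median of the gene means (black line). The gray line is the median of all genes whose mean reached 200 (176.3 per kb) and the band runs from 103.2 to 290.2, the quartiles; sarcomere and endothelial genes lie mostly above the band.

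Within each gene family the heart form was compared with its relatives in the same mouse, per kb of canonical transcript. Large differences were seen for Ryr2, Cacna1c and Jph2. Ryr3, the ryanodine receptor of brain and some smooth muscle, had normalized counts of 15, 7 and 16, and Ryr2 exceeded it by 8.19 ± 0.65 on the log2 scale (SD, n = 3). Cacna1d, the L-type channel of pacemaker cells, had 31, 54 and 73, and Cacna1c exceeded it by 5.43 ± 0.52. Jph1, the junctophilin of skeletal muscle, had 44, 45 and 58, and Jph2 exceeded it by 4.29 ± 0.47. None of these 3 relatives was above 73 in any mouse.

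The other relatives given here were nearer to the heart form per kb of canonical transcript. Atp2a3, the pump SERCA3, which is found in endothelial and blood cells, had normalized counts of 1156, 993 and 1267. Atp2a2 exceeded it by 1.23 ± 0.17 on the log2 scale per kb of canonical transcript, and by 0.01 with the union of annotated exons as length. Casq1, the calsequestrin of fast skeletal muscle, had 82, 113 and 88, and Casq2 exceeded it by 1.24 ± 0.26, or by 2.71 with the union of exons and 2.59 with no length. The 3 IP3 receptor genes are distant relatives of the ryanodine receptors. Itpr1 had 1156, 1080 and 1351, Itpr2 966, 997 and 1130, and Itpr3 482, 562 and 575. Per kb, Ryr2 exceeded Itpr1 by 0.90 ± 0.14, Itpr2 by 1.37 ± 0.11 and Itpr3 by 1.91 ± 0.13 on the log2 scale, in all 3 mice. On this length the order Ryr2, Itpr1, Itpr2, Itpr3 was the same in each mouse. With the union of exons the mean log2 ratios of Ryr2 to Itpr1, Itpr2 and Itpr3 were 0.94, 0.97 and 1.48, with Itpr1 and Itpr2 nearly level.

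Gja1 was close to a pair of other connexins per kb of canonical transcript, and this depended on the length used. Gja4 (connexin 37) and Gja5 (connexin 40), both typical of arterial endothelium, had normalized counts of 498, 519 and 590 and of 917, 870 and 848. The log2 ratio of Gja1 to Gja4 per kb was -0.00 ± 0.19, positive in 2 mice and negative in mouse 3, but it was -1.05 with the union of exons as length and 1.46 with no length. The log2 ratio to Gja5 was 0.16 ± 0.05, positive in 3 of 3 mice, but it was -0.30 with the union of exons as length. By count alone, without lengths, Gja1 was the highest of these connexin genes in every mouse. Gjc1 (connexin 45), the remaining connexin of the family list, had 676, 707 and 616, or 118.2 ± 8.2 per kb of canonical transcript against 312.7 ± 13.6 for Gja1. Slc8a1 was compared with Atp2b1, a calcium pump of the plasma membrane that also carries calcium out of the cell and had 1028, 942 and 1037. The log2 ratio was 0.44 ± 0.29 per kb of canonical transcript and turned to -1.11 with the union of exons, so it depends on the transcript of Slc8a1 that is assumed.

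Of the 17 family and partner pairs, 13 gave a ratio. Atp2a1, Ryr1 and Slc8a3 were not analysed here, and Kcnq5 was listed at 1, 1 and 4, under a floor of 3 counts in 2 libraries. The ratio kept its sign over the 3 mice in 12 of the 13, each at p = 0.25 in the exact sign-flip permutation test, the smallest possible (adjusted p = 0.271 over 13 pairs).

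**Figure D3:**
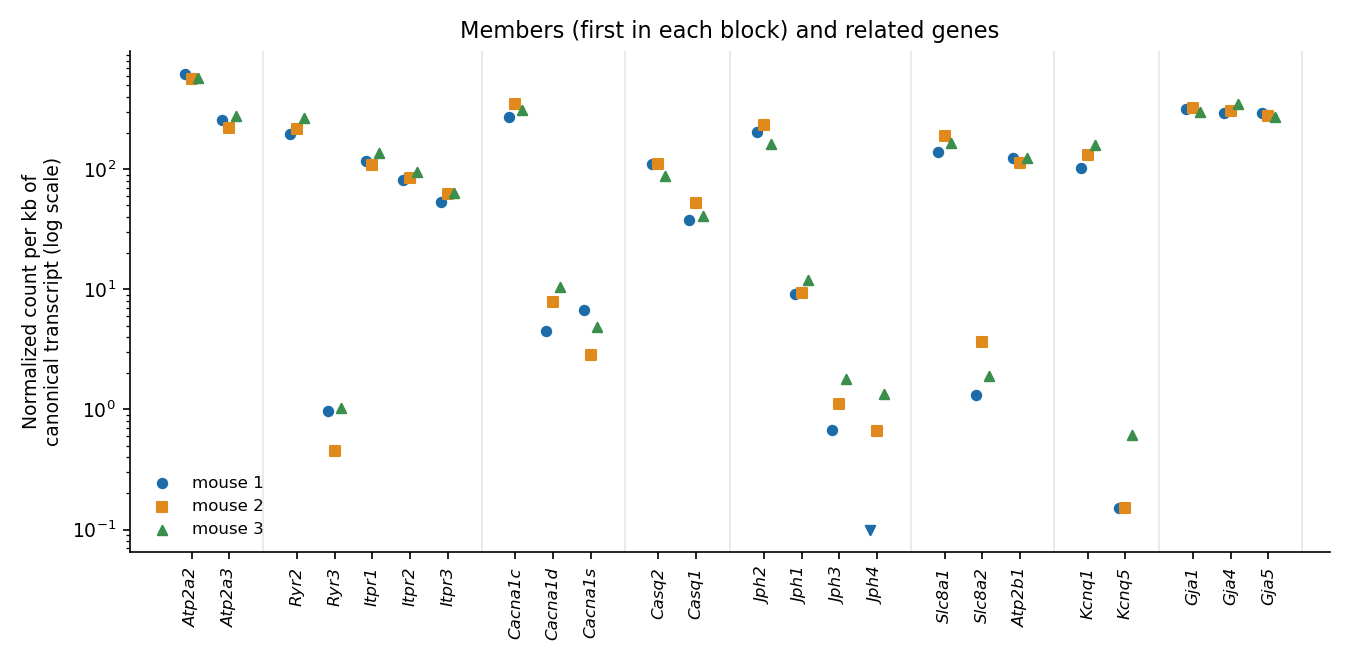
Normalized count per kb of canonical transcript (log scale) in mice 1, 2 and 3 for 8 of the 9 genes, each first in its block, and their relatives. Ryr3, Cacna1d and Jph1 lie far below Ryr2, Cacna1c and Jph2, while Gja1, Gja4 and Gja5 lie close together on this length; Jph4 in mouse 1, listed at 0, is drawn at the bottom as an inverted triangle.

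The 9 genes did not move together between mice. Kcnq1 alone had a coefficient of variation over 20% (21.6%), which is 1 of 9, against 8.00% of 9358 genes whose mean reached 200. The median was 13.1% over the 9 genes and 7.37% over all of those genes. Which genes pass 20% depends on single libraries. Without mouse 1 it was Jph2 (25.1%), without mouse 2 Kcnq1 (30.7%) and Ryr2 (21.96%), and without mouse 3 Slc8a1 (22.2%). Of all genes whose mean over the mice kept reached 200, 4.84%, 9.86% and 8.71% passed in these 3 settings. The spread of each gene was larger than counting alone gives at these depths, from 1.67 times for Gja1 to 10.0 times for Ryr2.

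Written as log2 of each mouse over the mean of the 3, Ryr2 lay at -0.22, -0.06 and 0.24 and Kcnq1 at -0.36, 0.01 and 0.28. Both were lowest in mouse 1 and highest in mouse 3. Jph2 at 0.03, 0.22 and -0.30 and Casq2 at 0.11, 0.10 and -0.24 were instead lowest in mouse 3. Cacna1c at -0.18, 0.16 and 0.01 and Slc8a1 at -0.25, 0.21 and 0.00 shared another order, with mouse 1 low and mouse 2 high. Pln at 0.14, -0.08 and -0.08 and Atp2a2 at 0.09, -0.06 and -0.03 were highest in mouse 1. Ryr2 and Jph2, partners at the release site, went separate ways in mouse 3, while Casq2 of the same site was low there like Jph2. The log2 ratio of Ryr2 to Jph2 per kb was -0.07, -0.10 and 0.71 in the 3 mice, whereas that of Atp2a2 to Pln stayed between 0.84 and 0.95.

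**Figure D4:**
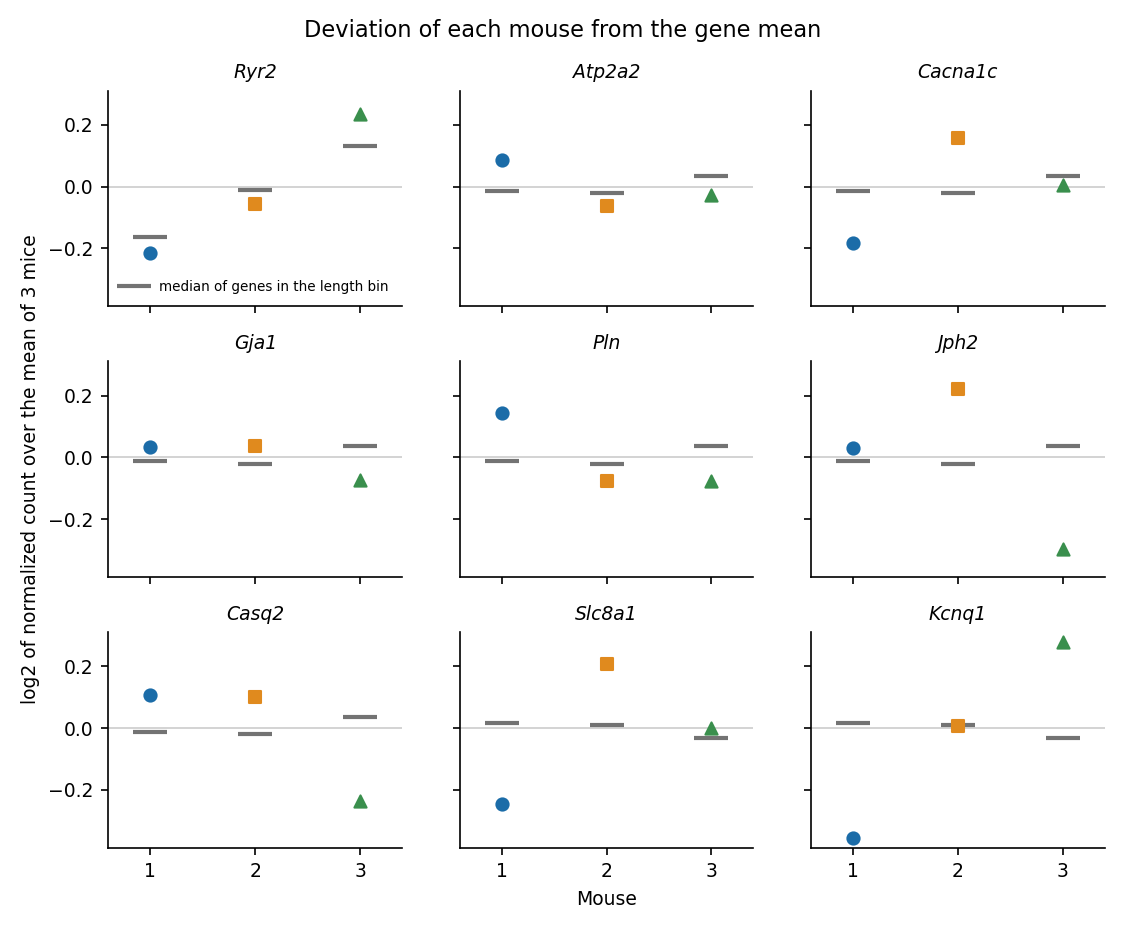
Log2 of the normalized count in each mouse over the mean of the 3 mice for each of the 9 genes (points), with the median of all genes in the same class of transcript length (gray bars). Ryr2 (-0.22, -0.06 and 0.24) follows its gray bars, and Kcnq1 (-0.36, 0.01 and 0.28), Jph2 and Casq2 do not.

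Other measures moved with these orders. Long transcripts as a whole were higher in mouse 3 and lower in mouse 1. Over 125 genes with a canonical transcript of more than 12000 bases the median deviation was -0.16, -0.01 and 0.13 on the log2 scale, and 72.8% of them were highest in mouse 3, against 29.7% of all genes. Across 9356 genes, which share the libraries and are not replicates, Spearman's rho of the deviation with transcript length was -0.27, -0.20 and 0.47 in mice 1, 2 and 3. With the median of the length class removed from each library, the coefficient of variation of Ryr2 went from 16.2% to 6.22%. That of Kcnq1 went from 21.6% to 23.3%, of Jph2 from 17.7% to 19.5% and of Casq2 from 13.1% to 14.98%. Ttn, the longest sarcomere gene, had normalized counts of 7379, 7743 and 10190, the same order of mice as Ryr2. The part of length in the difference between mice was otherwise not tested.

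Markers of other cell types differed between the mice as well. Summed normalized counts of 12 mural cell genes were 2770, 3037 and 3345, lowest in mouse 1. Des, which was also filed as a cardiomyocyte gene, gave the most to this sum with 1005, 798 and 816, highest in mouse 1. The sums of 10 fibroblast genes were 3254, 4210 and 4532, also lowest in mouse 1. Of these 10 genes, 0 were highest in mouse 1, but Dcn, the highest by mean, had 813, 579 and 1007, lowest in mouse 2. Within the mural list, Myh11, a smooth muscle myosin chosen after values had been seen, had 31, 118 and 240. Rgs5, in contrast, had 542, 615 and 505, lowest in mouse 3. Of the 12 mural genes, 7 were highest in mouse 3 and 2 in mouse 1. Above the median per kb of genes whose mean reached 200 were 1 of the 12 mural genes (Des) and 2 of the 10 fibroblast genes. Of 9 leukocyte genes, 0 were. A mean of 200 was reached by 6, 8 and 1 genes of these lists. The sums over 14 sarcomere genes were 23243, 23984 and 25706, to which Ttn gave the most, and the median deviation of these genes was 0.04, 0.04 and -0.07. The list by its median was lowest in mouse 3, as were Jph2 and Casq2, but this was not particular to it, since the median deviation in mouse 3 was also -0.04 for endothelial genes, -0.06 for other coupling genes and -0.08 for all genes with transcripts of over 1000 and up to 2000 bases. The part of these cell types in the levels of the 9 genes was not tested.

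**Figure D5:**
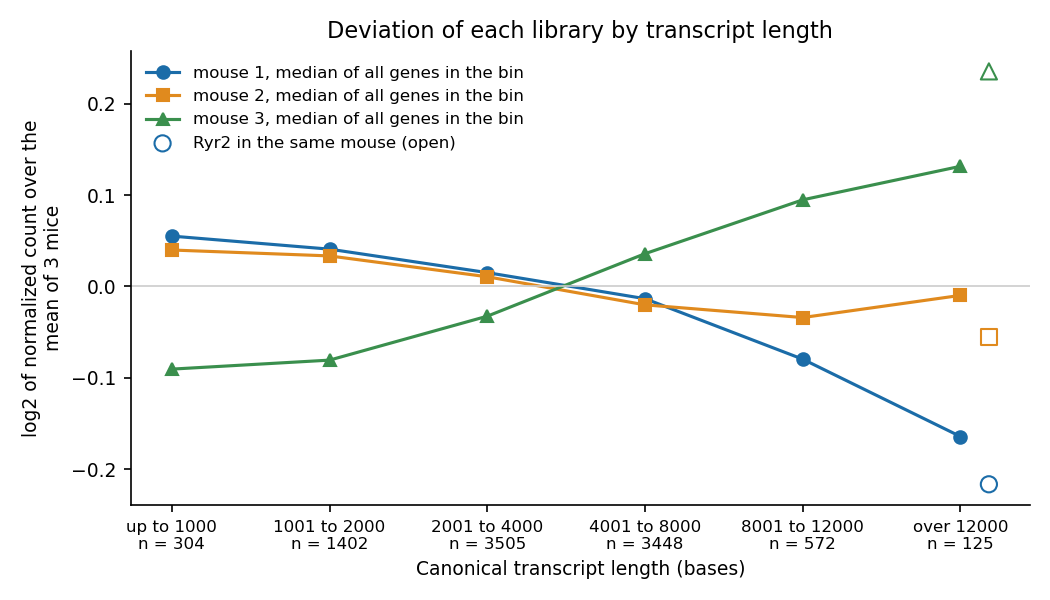
Median log2 of the normalized count in each mouse over the mean of the 3 mice, for all genes in 6 classes of canonical transcript length (filled symbols and lines), with Ryr2 beside the longest class (open symbols). From the shortest to the longest class the median of mouse 3 goes from -0.09 to 0.13 and that of mouse 1 from 0.06 to -0.16.

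The 5 genes whose pattern over the mice was nearest to the median pattern of the 9 genes (0.03, 0.04 and -0.03) were Zscan21, Pdp1, Zfp422, Crk and Smad5, at Euclidean distances between 0.0235 and 0.0236 on the log2 scale over 3 mice. This likeness is not particular to them, because 28.8% of 9347 genes lay within 0.1 of that pattern. Only 1 of the 9 genes did.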

How the data were processed

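Ribosome-associated RNA of 3 EC-RiboTag mice gave 72-base single-end libraries. Per the labels and methods, the authors trimmed reads with Trimmomatic 0.39, aligned them with STAR 2.7.11a to mm39 (GRCm39), dropped duplicates (Picard 3.1.1) and reads that were ribosomal, mitochondrial or mapped to several places, counted exonic reads by strand with featureCounts 2.0.4, and normalized with DESeq2 1.36.0. What was deposited has the unit score: these normalized counts, rounded to whole numbers, so no test for raw counts was run. They keep library differences that size factors do not remove, such as a trend with transcript length.

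Levels between genes were compared per kb of the Ensembl canonical transcript (GENCODE annotation of GRCm39, matching 17475 identifiers, 99.39%), which is newer than that of the authors. Reads per library were estimated from steps between low values, a step tested on simulated data. Intervals cover counting error only. The labels call the libraries biological replicates. Every pair differed by more than counting gives, with squared differences 5.48 to 8.31 times the sampling variance on average. Read-length windows of the canonical transcripts were compared with the rest of the genome for identical stretches (BLAST 2.17.0), and 6 of 16782 windows of Ryr2 and 0 in the other 8 genes had one. Python 3.11.15, numpy 2.4.6, pandas 2.3.3, scipy 1.17.1 and matplotlib 3.10.9 were used.

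The 9 genes and the lists were chosen with earlier results of these data known. Named are these genes, their family and partner pairs, from each list at most the 4 highest and 2 lowest genes by mean, and the 5 genes nearest in pattern. Others are said to be chosen after values were seen. Alternatives were other lengths, no length, scaling by trimmed means or equal totals, other filters, a pseudocount of 5, the median, and leaving out each mouse. The longest coding transcript and the removal of length and GC trends were added after seeing the data. Some of the genes that this rule names, including 1 of a family pair, are not reported here.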

Additional observations from a re-analysis of the deposited data

How the results depend on the processing

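Length was the choice that changed most. In the order union of annotated exons, no length and longest coding transcript (the last added after seeing the data), the log2 ratio was 0.81, -0.18 and 0.18 for Pln to Gja1, 0.37, -0.49 and 0.71 for Gja1 to Cacna1c, and 2.12, 0.67 and 2.63 for Jph2 to Slc8a1. In the same order it turned to -0.43, -0.87 and -0.52 for Cacna1c to Ryr2 and to -1.11, -0.92 and -2.03 for Slc8a1 to Atp2b1. Slc8a1 to Kcnq1 turned to -1.46 with the union of exons and -2.17 with the longest coding transcript. With the union of exons and with no length, Kcnq1 to Casq2 was -0.36 and -0.51, and Gja1 to Gja4 was -1.05 and 1.46. Ryr2 to Jph2 was 2.17 with no length, and Gja1 to Gja5 turned to -0.30 with the union of exons. The medians per kb with the union of exons and with the longest coding transcript were 109.8 and 184.4 for the 9 genes, 363.1 and 553.0 for endothelial genes, and 190.3 and 463.2 for sarcomere genes. These follow from the lengths themselves.

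Of genes with a mean of at least 100, 1273 of 10951 (11.6%) had a coefficient of variation over 20%. With no filter it was 6305 of 17583 (35.9%), against 749 of 9358 (8.00%) with a mean of at least 200. With mouse 1, 2 or 3 left out it was 455 of 9396 (4.84%), 921 of 9339 (9.86%) and 812 of 9320 (8.71%). Among the 9 genes it was 1 to 2 with each mouse left out. Removing the length or GC trend left it at 1, against 7.45% and 8.29% of all genes tested. Other scaling moved no level of the 9 genes by more than their SD. No paired comparison of conditions was possible because all libraries belong to 1 group, whereas ratios between genes were taken within each mouse. Groups of 3 are too small for an outlier rule, and 3 mice cannot give a p below 0.25, so no ratio was called.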

Other observations

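Genes typical of atrial muscle, chosen after values had been seen, were lowest in mouse 2 for 3 of the 4 looked up. Myl7, the atrial regulatory myosin light chain, was at normalized counts of 138 (mouse 1), 14 (mouse 2) and 105 (mouse 3). The exact 95% Poisson interval in mouse 2, 6.92 to 22.2 reads, did not reach those of mouse 1 (118.7 to 166.3) or mouse 3 (89.5 to 131.5). These intervals cover counting error only, and every pair of libraries differed by more than counting gives. Sln was listed at 27, 1 and 24. Myl4, the other atrial light chain, had 179, 116 and 219, also lowest in mouse 2, whereas Nppa, the atrial natriuretic peptide, had 329, 415 and 318 and was highest there. The 9 calcium handling and excitation genes lay in mouse 2 between -0.08 (Pln) and 0.22 (Jph2) on the log2 scale relative to the mean of the 3 mice. With 1 library per mouse and 1 condition, the difference was not tested.

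In the same table, the transcription factor gene Tbx3, known from the conduction system and the highest gene of the conduction list, had normalized counts of 1049, 989 and 1121. The pacemaker channel gene Hcn4 had 42, 22 and 34. Tbx5, which acts in atria and the conduction system and was chosen after values had been seen, had 89, 79 and 89.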
